A study of Mus musculus with 6 samples.

Results

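Inhibitory synapses were described here through 27 genes that encode receptors for GABA and glycine, the proteins that hold those receptors at the synapse, the chloride transporters that set their driving force and the GABARAP family of receptor trafficking proteins. The 27 genes were taken by symbol from 32531 gene entries, and all 27 had an entry. They comprised 12 GABA-A receptor subunits, 2 GABA-B receptor subunits, 4 glycine receptor subunits, 4 scaffold and adhesion proteins, 2 chloride transporters and 3 members of the GABARAP family. The low-count filter kept 26 of them for testing and removed Gabra6.

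The study sampled the midbrain of adult, untreated Lhx5-EGFP/Rpl10a mice of line DT154, and every library came from control animals of that 1 line. In such mice a ribosomal protein fused to a green fluorescent protein is made in the cells that use the driver gene's regulatory sequences, here those of Lhx5, and an antibody to the tag pulls down ribosomes with the messenger RNA they carry (translating ribosome affinity purification, TRAP). There were 3 libraries of pulled-down RNA (IP) and 3 comparison libraries, whose titles call them input and whose sample type calls them unbound. The labels do not say whether the replicates came from separate animals or pools, so the p-values are measured against differences between libraries that could be purely technical.

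GABA and glycine act mainly through ligand-gated chloride channels built from 5 subunits, and the subunits present set where a channel sits and how it responds. Gephyrin, the neuroligins and their partners collect these channels opposite inhibitory terminals, and the balance of chloride export and import decides whether the current inhibits the cell. The midbrain holds many GABA-releasing neurons and receives dense inhibitory input from the basal ganglia.

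Counts summed over genes lay between 38058239 and 45841499 per library, and 3 counts, taken as the floor, corresponded to 0.0688 to 0.0741 counts per 1000000 (CPM, scaled by TMM). Lhx5, the driver, was at 50.7 ± 4.81 CPM in IP against 3.31 ± 0.963 CPM in input (SD over 3 libraries each); the log2 fold change was 3.93 (SE 0.23, adjusted p = 1.29e-05). Of 6 pan-neuronal markers 5 were higher in IP, and all 6 astrocyte, all 6 oligodendrocyte, all 5 microglial and all 4 endothelial markers were lower. Of 6 markers of midbrain nuclei, Pou4f1 was higher in IP, Th and Slc6a3 were lower, and the other 3 did not pass. Reads left out as ambiguous between genes made up 1.63% ± 0.046 in IP against 9.35% ± 1.48 in input (SD over 3 libraries each). Single libraries stood apart. IP replicate 2 had 1246 CPM summed over 5 Purkinje cell markers against 237 and 178 in the other IP libraries. Input replicate 3 had 755 CPM over 6 striatal markers against 144 and 66.6, and input replicate 2 had 19.2 CPM of the cerebellar granule cell gene Cbln3 against 0.769 and 0.790. Over the 6 midbrain markers input replicate 3 had 25.5 CPM against 133 and 113. Slc6a3 was at 4.99 CPM there against 62.4 and 52.3, so its groups overlapped, and Gata3 was at 0.741 CPM against 14.6 and 14.4. Over the fits that left out 1 library, the log2 fold change stayed between 1.66 and 2.29 for Pou4f1. It stayed between -2.37 and -1.77 for Th and between -3.59 and -2.57 for Slc6a3. The direction of these results therefore did not rest on 1 library, and their calls in those fits are not given. Of the 3 markers that did not pass, En1 changed sign (-0.17 to 0.90). IP replicate 3 stood apart in the inhibitory synapse genes themselves, as described below. Each result on those genes that rests on 1 of these libraries is given with and without it.

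Of the 26 tested genes, 10 were higher in IP than in input, 4 were lower and 12 did not pass (edgeR quasi-likelihood test, adjusted p below 0.05). The genes that rose were Gabbr1, Glra1, Glra2, Glrb, Nlgn2, Lhfpl4, Slc12a5, Gabarap, Gabarapl1 and Gabarapl2, and those that fell were Gabra4, Gabrg1, Gabrd and Slc12a2. Over all 17197 tested genes, 26% were called higher and 27.9% lower, so the count of higher genes was above the share over all genes and the count of lower genes was below it. The median log2 fold change was 0.30 over the 26 genes and -0.01 over all tested genes. A change of more than 2-fold passed its own test for 0 of the 26 genes in the higher direction and for 2, Gabrd and Slc12a2, in the lower direction, where the shares over all genes were 2.25% and 12.9%. All 3 IP libraries lay above all 3 input libraries for 8 genes and below them for 4, and the groups overlapped for 14. Over all tested genes these shares were 30.7% above and 32.8% below. With the replicate number as a block, 13 of the 26 genes were higher and 3 lower, against 28% and 28.4% of all genes. Leaving out IP replicate 1 brought the count of higher genes to 6, and leaving out IP replicate 3 brought it to 13. Over the fits that left out 1 library, 3721 to 4384 of all genes were called higher. The count of 6 was therefore near the share over all genes, and the higher count above that share was not kept without IP replicate 1.

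**Figure D1:**
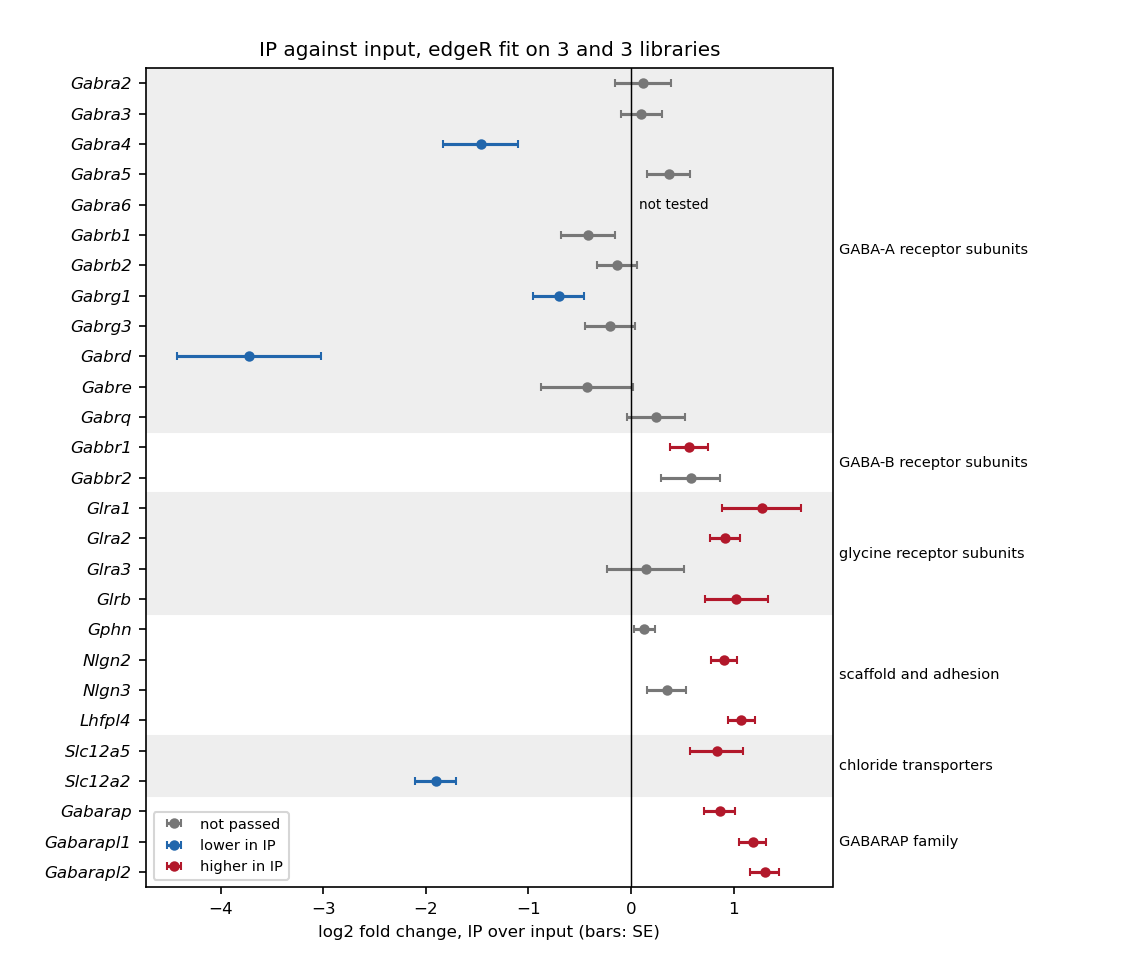
Fitted log2 fold change of IP over input for each of the 27 genes (x axis), grouped by role, with bars for 1 SE, from edgeR on 3 IP and 3 input libraries. Of 11 tested GABA-A subunits none lies among the 10 genes called higher, while all 3 GABARAP family genes do; Gabra6 was not tested.

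Of the 11 tested GABA-A receptor subunits 0 were higher, 3 were lower and 8 did not pass, beside 26% higher and 27.9% lower over all tested genes, so the count of lower subunits was near the background. The most abundant of them per kilobase of exon in IP was Gabrb2, a beta subunit common in channels throughout the brain, at 51.6 ± 12.3 CPM per kilobase. It was followed by Gabra5 at 37.1 ± 7.29 and Gabra3 at 20.5 ± 5.21 CPM per kilobase (SD, n = 3 each). Gabra4 came next at 7.56 ± 3.44, then Gabra2 at 3.92 ± 1.35 and Gabrq at 3.55 ± 1.29 CPM per kilobase. The last 2 of these differed by less than their SD. Gabrg1, Gabrb1 and Gabrg3 followed at 2.23, 1.14 and 1.005 CPM per kilobase, of which the last 2 again differed by less than their SD. Gabrd, Gabre and Gabra6 were below 0.5 CPM per kilobase in IP. In input the order differed in its middle: Gabra4 at 20.9 ± 6.22 CPM per kilobase stood beside Gabra3 at 19.1 ± 2.87, and Gabrd at 5.35 ± 1.07 stood above Gabrg1 and Gabra2.

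Gabrd encodes the delta subunit, which forms channels outside the synapse that carry tonic inhibition. Its level was 2.03, 1.37 and 0.0933 CPM in IP replicates 1 to 3 and 16.4, 11.9 and 17.8 CPM in input replicates 1 to 3, from counts of 85, 56 and 4 against 683, 520 and 721. Every IP library was below every input library, and IP replicate 3 was far below the other two. The fitted log2 fold change was -3.72 (SE 0.70, adjusted p = 0.00236), a level 13.2-fold lower in IP, and the change past 2-fold had an adjusted p of 0.0112. Without IP replicate 3 the log2 fold change was -3.16 (adjusted p = 0.000257). Gabra4 encodes the alpha-4 subunit, the usual partner of delta in forebrain and thalamus. It was at 56.1, 59.9 and 21.9 CPM in IP and at 128, 88.3 and 164 CPM in input. Again the groups did not overlap, with the lowest IP value in replicate 3 and the highest input value in replicate 3. Its log2 fold change was -1.46 (SE 0.37, adjusted p = 0.00952), and without IP replicate 3 it was -1.12 (adjusted p = 0.00777). With the replicate block the estimate was -1.53 with an adjusted p of 0.0888, so this call was lost, and the log2 ratios of the same-numbered pairs were -1.19, -0.56 and -2.90. As with both genes, most markers of forebrain neurons were lower in IP than in input. The summed level of 4 markers of cortical and hippocampal excitatory neurons was 26.5, 29.9 and 5.81 CPM in IP and 156, 237 and 104 CPM in input, with 4 of 4 called lower and none at 0 in every IP library. The 6 striatal markers summed to 42.5 to 59.8 CPM in IP and 66.6 to 755 CPM in input, with 4 of 6 called lower and none at 0 in every IP library. With the replicate block 3 of the 4 cortical and hippocampal markers and 0 of the 6 striatal markers were called lower. Among the input libraries both genes were lowest in replicate 2 and highest in replicate 3. The cortical and hippocampal sum was the reverse, and the striatal sum had the same order as the genes. The part of forebrain neurons in the Gabrd and Gabra4 results was not tested. In RNA pulled down from many cells at once, which cell types contributed and how much RNA each cell held cannot be told apart.

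Gabra6 encodes the alpha-6 subunit, a gene of cerebellar granule cells in the adult brain. It had 9, 39 and 0 counts in IP and 7, 287 and 0 counts in input, so input replicate 2 alone held most of its reads. In that library Gabra6 was at 6.58 CPM, with Cbln3 at 19.2 CPM and the granule cell gene Fat2 at 6.26 CPM. The 5 granule cell markers summed to 115 CPM there and to 74.2 and 65.4 CPM in the other input libraries. In IP the 5 markers summed to 18.2 to 24.2 CPM, with 1 of 5 called lower and none at 0 in every IP library. That 1 marker, Etv1, was at 57.0, 59.4 and 54.5 CPM in input replicates 1 to 3, so it made up most of the sum in replicates 1 and 3. Cbln3 was at 2.89, 4.57 and 2.92 CPM in IP replicates 1 to 3, above its 0.769 and 0.790 CPM in input replicates 1 and 3.

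**Figure D2:**
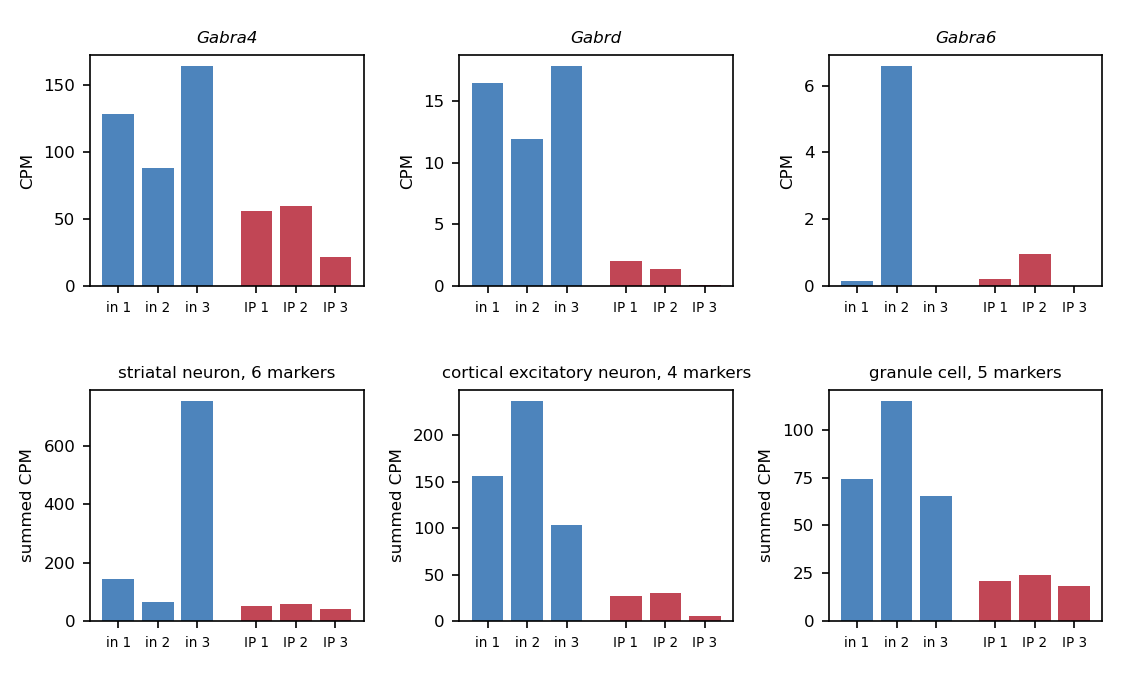
CPM of Gabra4, Gabrd and Gabra6 in each library (top) and the summed CPM of striatal, cortical and hippocampal excitatory, and granule cell markers in the same libraries (bottom), with 1 bar per library and all axes from 0. Gabra4 and Gabrd are lower in every IP library, Gabra6 is high in input replicate 2 only (6.58 CPM), and the striatal sum reaches 755 CPM in input replicate 3.

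Gabrg1 encodes the gamma-1 subunit, found in few neuron types and also in glia. It was at 23.1, 18.7 and 10.8 CPM in IP and at 28.4, 27.4 and 29.9 CPM in input, again without overlap. Its log2 fold change was -0.71 (SE 0.25, adjusted p = 0.0389). This call rested on several libraries: the adjusted p was 0.0869 without IP replicate 2, and leaving out input replicate 1, 2 or 3 gave 0.0862, 0.0769 or 0.0910. The fold change stayed between -0.95 and -0.44 over the 6 fits that left out 1 library. Like Gabrg1, the 6 astrocyte markers were lower in IP. They summed to 111 to 166 CPM in IP and 1024 to 1368 CPM in input, with 6 of 6 called lower and none at 0 in every IP library. Their part in the Gabrg1 result was not tested.

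The other 8 tested GABA-A subunits did not pass. Gabra5 encodes the alpha-5 subunit, much of which lies outside synapses. It was at 110, 132 and 88.6 CPM in IP and 84.1, 109 and 63.8 CPM in input, so the groups overlapped although each IP library was above the input library of its number. The log2 fold change was 0.37 (SE 0.21, adjusted p = 0.171), and with the replicate block it was 0.38 with an adjusted p of 0.0123. Without IP replicate 2 and input replicate 3 together it was -0.00081. Gabrb2 was at 402, 336 and 247 CPM in IP and 425, 367 and 291 CPM in input, and its log2 fold change was -0.14 (SE 0.20, adjusted p = 0.585). Both groups spanned nearly the same range, and in both the lowest value was in replicate 3. Gabra3, which encodes the alpha-3 subunit of monoaminergic and reticular neurons, had 99.4, 83.0 and 58.8 CPM in IP and 86.9, 73.3 and 64.6 CPM in input; its log2 fold change was 0.10 (SE 0.20, adjusted p = 0.685). Gabra2, which encodes the synaptic alpha-2 subunit, had 38.7, 32.4 and 18.6 CPM in IP and 20.7, 28.5 and 33.8 CPM in input. Replicate 1 was highest among the IP libraries and lowest among the input libraries, and replicate 3 was the reverse. The log2 fold change was 0.11 (SE 0.28, adjusted p = 0.747), from log2 pair ratios of 0.91, 0.19 and -0.86. Gabrq, which encodes the theta subunit of hypothalamic and brainstem neurons, had 23.7, 22.2 and 11.03 CPM in IP and 14.1, 14.1 and 19.9 CPM in input. Its log2 fold change was 0.24 (SE 0.28, adjusted p = 0.494), and without IP replicate 3 it was 0.53 with an adjusted p of 0.0452. The remaining 3 had log2 fold changes of -0.42 for Gabrb1, -0.21 for Gabrg3 and -0.43 for Gabre, with adjusted p between 0.211 and 0.498. Gabre, which encodes the epsilon subunit, was low in both groups, at 1.81 ± 1.003 CPM in IP and 2.44 ± 0.733 CPM in input (SD over 3 libraries each).

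Several of these subunit genes lie next to one another. On chromosome 5 (mm10) Gabrg1, Gabra2, Gabra4 and Gabrb1 fall within 1398 kb, from 70751047 to 72149037, and of these 4 neighbours Gabrg1 and Gabra4 were lower in IP while Gabra2 and Gabrb1 did not pass. Gabra4 (71569749 to 71658308, minus strand) and Gabrb1 (71658113 to 72149037, plus strand) lie head to head, and their annotated exons overlap by 46 bases. On the X chromosome Gabre, Gabra3 and Gabrq fall within 587 kb, and none of these 3 passed. On chromosome 11 Gabra6 and Gabrb2 lie within 323 kb. Gabrb2 was at 247 to 402 CPM in IP, and Gabra6 there was at most 0.953 CPM.

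Promoter sequences are shown for called genes with an entry in the RefSeq promoter table (build GRCm38.p6), to set genes that fell beside genes that rose. Gabra4 and Gabrg1 were the only genes called lower with an entry, and Gabrg1 had the smallest fall of the 4. Gabrd and Slc12a2, the 2 genes with a change past 2-fold, had no entry, and neither had Glra1 among the genes called higher. Genes that rose were taken by size of fold change. Each sequence is read 5′ to 3′ on the gene's own strand and covers up to 250 bases before the transcription start, less any base in an annotated exon. Gabarapl1, whose fold change was above those of Lhfpl4 and Glrb, was passed over because annotated exons cover its stretch. Capitals mark the GC box GGGCGG on either strand (CCGCCC when it is on the other strand) and the homeodomain core TAATTA, which reads the same on both strands. Neither motif can share bases with the other. Gabra4 (chr5:71658364-71658558, minus strand) and Gabrg1 (chr5:70842618-70842867, minus strand) fell, and Gabarapl2 (chr8:111940453-111940702, plus strand), Lhfpl4 (chr6:113195385-113195634, minus strand) and Glrb (chr3:80913661-80913910, minus strand) rose.
Gabra4: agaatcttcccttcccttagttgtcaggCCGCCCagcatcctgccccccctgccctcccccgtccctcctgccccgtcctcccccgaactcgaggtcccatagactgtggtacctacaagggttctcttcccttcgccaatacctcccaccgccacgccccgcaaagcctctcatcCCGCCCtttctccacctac
Gabrg1: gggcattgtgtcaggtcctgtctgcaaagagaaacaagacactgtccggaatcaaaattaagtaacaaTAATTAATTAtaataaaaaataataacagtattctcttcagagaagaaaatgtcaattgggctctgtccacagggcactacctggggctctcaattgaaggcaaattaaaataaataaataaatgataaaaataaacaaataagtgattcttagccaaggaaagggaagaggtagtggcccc
Gabarapl2: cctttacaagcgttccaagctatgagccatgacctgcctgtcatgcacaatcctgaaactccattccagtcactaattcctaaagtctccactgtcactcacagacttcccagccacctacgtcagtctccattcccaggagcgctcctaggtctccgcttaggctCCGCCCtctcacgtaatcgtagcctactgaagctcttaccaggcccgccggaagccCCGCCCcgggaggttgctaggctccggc
Lhfpl4: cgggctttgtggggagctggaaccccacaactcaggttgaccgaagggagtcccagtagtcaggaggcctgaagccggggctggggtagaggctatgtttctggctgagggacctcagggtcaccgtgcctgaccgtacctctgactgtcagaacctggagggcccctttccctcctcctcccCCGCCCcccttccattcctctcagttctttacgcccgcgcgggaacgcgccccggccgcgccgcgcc
Glrb: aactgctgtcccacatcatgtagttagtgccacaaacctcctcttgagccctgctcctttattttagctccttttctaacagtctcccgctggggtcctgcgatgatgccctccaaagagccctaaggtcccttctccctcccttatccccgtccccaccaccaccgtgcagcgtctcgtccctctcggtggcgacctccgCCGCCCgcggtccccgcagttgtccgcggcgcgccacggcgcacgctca
Of the genes shown, the 2 that fell were unlike each other. In front of Gabra4 were 2 GC boxes and 63.6% G and C. In front of Gabrg1 were 0 GC boxes, 35.6% G and C and 2 overlapping homeodomain cores. The 3 genes that rose had 2, 1 and 1 GC boxes and between 57.2% and 66.4% G and C. In the whole table of 32851 windows, each 250 bases before to 50 bases after a start, 23 of the 27 genes had an entry, with 28 windows between them. Of these 28 windows 18 held a GC box (64.3%, against 35.7% of all windows) and 1, that of Gabrg1, held the homeodomain core (3.57%, against 5.29%). Median G and C was 59.5% over the 28 windows and 52.7% over all windows, and some genes had more than 1 window. The part of G and C content in the GC box share was not tested. Among genes with an entry, 8 of 9 called higher, 1 of 2 called lower and 8 of 11 not passed had a window with a GC box. A match is a run of letters and not a binding site.

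Both subunits of the GABA-B receptor, the metabotropic receptor for GABA, were above input in every same-numbered pair. Gabbr1 was at 766, 697 and 476 CPM in IP and at 491, 450 and 372 CPM in input. Its groups overlapped because IP replicate 3 lay below input replicate 1. For Gabbr1 the log2 fold change was 0.56 (SE 0.19, adjusted p = 0.0307). This call was lost when any of 4 libraries was left out, with an adjusted p of 0.104 without IP replicate 1, 0.133 without IP replicate 2, 0.0693 without input replicate 2 and 0.120 in the fit without input replicate 3. Gabbr2, the subunit that couples to G proteins, was at 273, 243 and 139 CPM in IP and at 189, 150 and 98.7 CPM in input. Its log2 fold change of 0.58 (SE 0.29) was as large as that of Gabbr1 and did not pass (adjusted p = 0.118). The pair ratios of Gabbr2 were close to one another, at 0.53, 0.69 and 0.50 on the log2 scale, and with the replicate block the estimate was 0.57 with an adjusted p of 0.00219. Without IP replicate 3 it was 0.83 with an adjusted p of 0.0249.

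Glycine receptors rose in 3 of 4 genes, beside 26% of all tested genes. Glrb encodes the beta subunit, which binds gephyrin and anchors the receptor. It was at 459, 367 and 232 CPM in IP and at 219, 196 and 106 CPM in input, so the lowest IP library lay just above the highest input library. For Glrb the log2 fold change was 1.02 (SE 0.31, adjusted p = 0.0210). The adjusted p was 0.0718 without IP replicate 1, 0.0823 without IP replicate 2 and 0.0529 without input replicate 3. In pairs the log2 ratio was 1.07, 0.90 and 1.13, and with the replicate block the adjusted p was 0.000241. Glra2 encodes the alpha-2 subunit, the main alpha subunit of the developing brain. It was at 38.8, 30.6 and 36.3 CPM in IP and at 19.4, 16.5 and 20.1 CPM in input. Its replicates were tight and did not overlap, and its log2 fold change was 0.92 (SE 0.14, adjusted p = 0.00104). Glra1 encodes the alpha-1 subunit of adult brainstem and spinal cord. It was at 32.4, 18.02 and 25.2 CPM in IP and at 14.6, 11.9 and 4.71 CPM in input, with the lowest input value in replicate 3. For Glra1 the log2 fold change was 1.28 (SE 0.38, adjusted p = 0.0214), and without IP replicate 1 the adjusted p was 0.0695. Without input replicate 3 the log2 fold change was 0.90, and the call was kept. Glra3 had 8.63, 7.69 and 4.29 CPM in IP and 7.76, 7.59 and 3.28 CPM in input, and its log2 fold change was 0.14 (SE 0.37, adjusted p = 0.765). Per kilobase of exon, Glrb was at 75.8 ± 24.6 CPM in IP, while Glra2 was at 11.2 ± 1.34, Glra1 at 10.4 ± 2.97 and Glra3 at 0.746 ± 0.248 (SD, n = 3 each). The level of Glra2 and that of Glra1 differed by less than their SD.

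**Figure D3:**
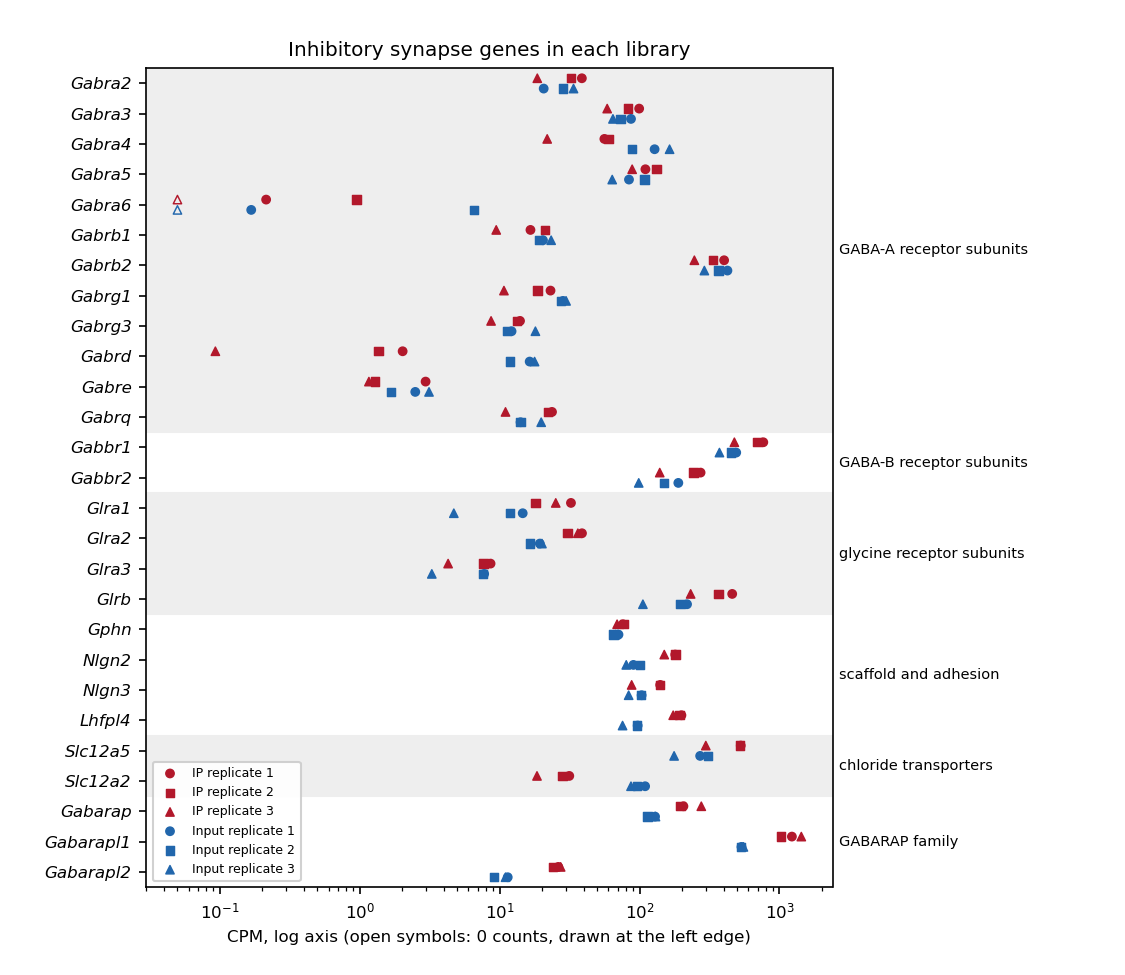
CPM of each of the 27 genes in every library on a log axis, IP in red and input in blue, with circles, squares and triangles for replicates 1, 2 and 3. For the GABARAP family, Glra2, Nlgn2 and Lhfpl4 the IP libraries stand clear of input, and the red triangle of IP replicate 3 is the lowest IP point for all GABA-A subunits that were tested.

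At the postsynaptic scaffold, 2 of 4 genes rose, beside 26% of all tested genes, a small list from which little can be read. Lhfpl4 encodes a membrane protein that links GABA-A receptors to neuroligin-2, and it was at 199, 193 and 174 CPM in IP and at 97.0, 96.1 and 75.7 CPM in input. Nlgn2 encodes neuroligin-2, the adhesion protein of inhibitory synapses, and it was at 180, 181 and 150 CPM in IP and at 90.5, 101 and 80.4 CPM in input. Neither gene overlapped between the groups. The log2 fold change was 1.08 (SE 0.13, adjusted p = 0.000291) for Lhfpl4 and 0.91 (SE 0.13, adjusted p = 0.000625) for Nlgn2. Gphn, which encodes the scaffold gephyrin itself, did not move with them: it was at 76.2, 77.5 and 69.2 CPM in IP and at 70.8, 65.4 and 67.5 CPM in input. Those values lay close together, and the log2 fold change was 0.13 (SE 0.10, adjusted p = 0.315). Nlgn3, a neuroligin of both excitatory and inhibitory synapses, was at 141, 139 and 87.9 CPM in IP and at 104, 102 and 83.7 CPM in input. IP replicate 3 fell among the input libraries, and the log2 fold change of 0.35 (SE 0.19) did not pass (adjusted p = 0.150). It passed with the replicate block (0.32, adjusted p = 0.0431) and without IP replicate 3 (0.55, adjusted p = 0.00833).

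The chloride transporters parted in opposite directions. Slc12a5 encodes KCC2, the neuronal exporter of chloride. It was at 529, 521 and 298 CPM in IP and at 271, 307 and 177 CPM in input, and the groups overlapped because IP replicate 3 lay just below input replicate 2. The log2 fold change was 0.83 (SE 0.26, adjusted p = 0.0247). This call was lost without IP replicate 1 or 2 (adjusted p = 0.0776 and 0.117) and without input replicate 1 or 3 (adjusted p = 0.0517 and 0.0827), and the pair ratios were 0.96, 0.76 and 0.75. Slc12a2 encodes NKCC1, which brings chloride in and in the adult brain is made by glia and choroid plexus as well as by neurons. It was at 31.5, 28.2 and 18.5 CPM in IP and at 110, 95.7 and 86.9 CPM in input, far apart in all libraries. For Slc12a2 the log2 fold change was -1.90 (SE 0.20, adjusted p = 0.000161), 3.74-fold lower in IP, and the change past 2-fold had an adjusted p of 0.00315. The ratio of Slc12a5 to Slc12a2 within a library was 16.8, 18.5 and 16.1 in IP and 2.47, 3.21 and 2.03 in input. The groups did not overlap, with a difference of 2.76 on the log2 scale (two-sided exact permutation test, p = 0.1, the smallest that 3 against 3 can give).

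**Figure D4:**
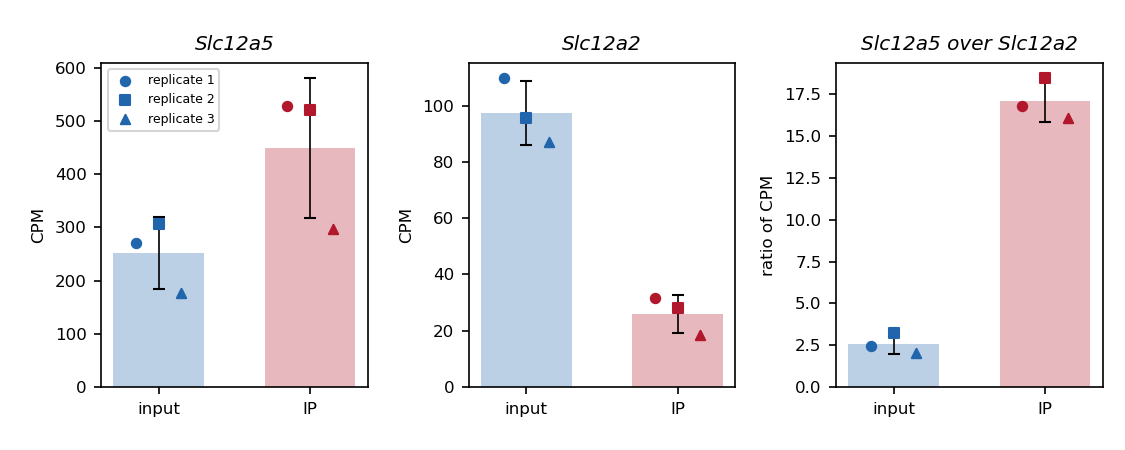
CPM of Slc12a5 (left) and Slc12a2 (middle) and their ratio (right) in input and IP. Bars show the mean from 0, error bars the SD over 3 libraries and symbols the libraries; Slc12a5 overlaps between groups, whereas Slc12a2 and the ratio do not (ratio 2.03 to 3.21 in input and 16.1 to 18.5 in IP).

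Glial markers, like Slc12a2, were lower in IP. The 6 oligodendrocyte markers summed to 290 to 431 CPM in IP and 3649 to 4333 CPM in input, with 6 of 6 called lower and none at 0 in every IP library. The astrocyte sums are given above. The choroid plexus gene Ttr was at 338, 7.24 and 1266 CPM in the input replicates, and Slc12a2 was at 110, 95.7 and 86.9 CPM in the same libraries. The part of glial and choroid plexus RNA in the Slc12a2 result was not tested. Like the 10 genes that rose, most pan-neuronal markers were higher in IP, with 5 of 6 called higher. The 6 markers summed to 18095 to 22862 CPM in IP and 8394 to 11817 CPM in input. Most of that sum was Snap25, at 15185 to 19783 CPM in IP, and Syt1 did not pass (log2 fold change -0.17). The part of neuronal RNA in the results of those 10 genes was not tested.

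The GABARAP family rose in 3 of 3 genes, beside 26% of all tested genes. These small ubiquitin-like proteins carry GABA-A receptors through the secretory pathway and also take part in autophagy, so their levels are not specific to synapses. Gabarapl1 was at 1227, 1022 and 1432 CPM in IP and at 535, 533 and 553 CPM in input. Gabarap was at 206, 197 and 276 CPM in IP and at 129, 114 and 130 CPM in input, and Gabarapl2 at 26.3, 24.2 and 27.3 against 11.4, 9.12 and 11.03 CPM. None of the 3 overlapped between groups, and for each the highest IP value was in replicate 3, the library in which most of the other genes were lowest. The log2 fold changes were 1.18 for Gabarapl1 (SE 0.13, adjusted p = 0.000213), 0.86 for Gabarap (SE 0.15, adjusted p = 0.00156) and 1.30 for Gabarapl2 (SE 0.15, adjusted p = 0.000209). Per kilobase of exon Gabarapl1 was the most abundant of all 27 genes, at 610 ± 102 CPM in IP and 268 ± 5.41 CPM in input (SD over 3 libraries each). Part of Gabarapl2 matches 6 other annotated genes at 90.8% to 99.4% identity. The longest match to each spans 314 to 353 bases, of 2325 bases of exon. Reads that aligned to several places were left out, so the level of Gabarapl2 is uncertain, and its low rank beside Gabarapl1 is not interpretable. Such reads made up 44.2% ± 0.402 in IP against 32.5% ± 0.596 in input (SD over 3 libraries each). Their part in the fold change of Gabarapl2 was not tested. Gabarapl1 overlaps the exons of 1700101I11Rik by 570 bases on the other strand, and that entry had 76 to 187 counts per library. The GABARAP genes are short, and over all tested genes with an annotated length the median log2 fold change was 0.43 below 2 kb of exon, the class of Gabarap, 0.23 from 2 to 4 kb, the class of Gabarapl1 and Gabarapl2, and -0.26 at 8 kb or more. The part of transcript length in these results was not tested.

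**Figure D5:**
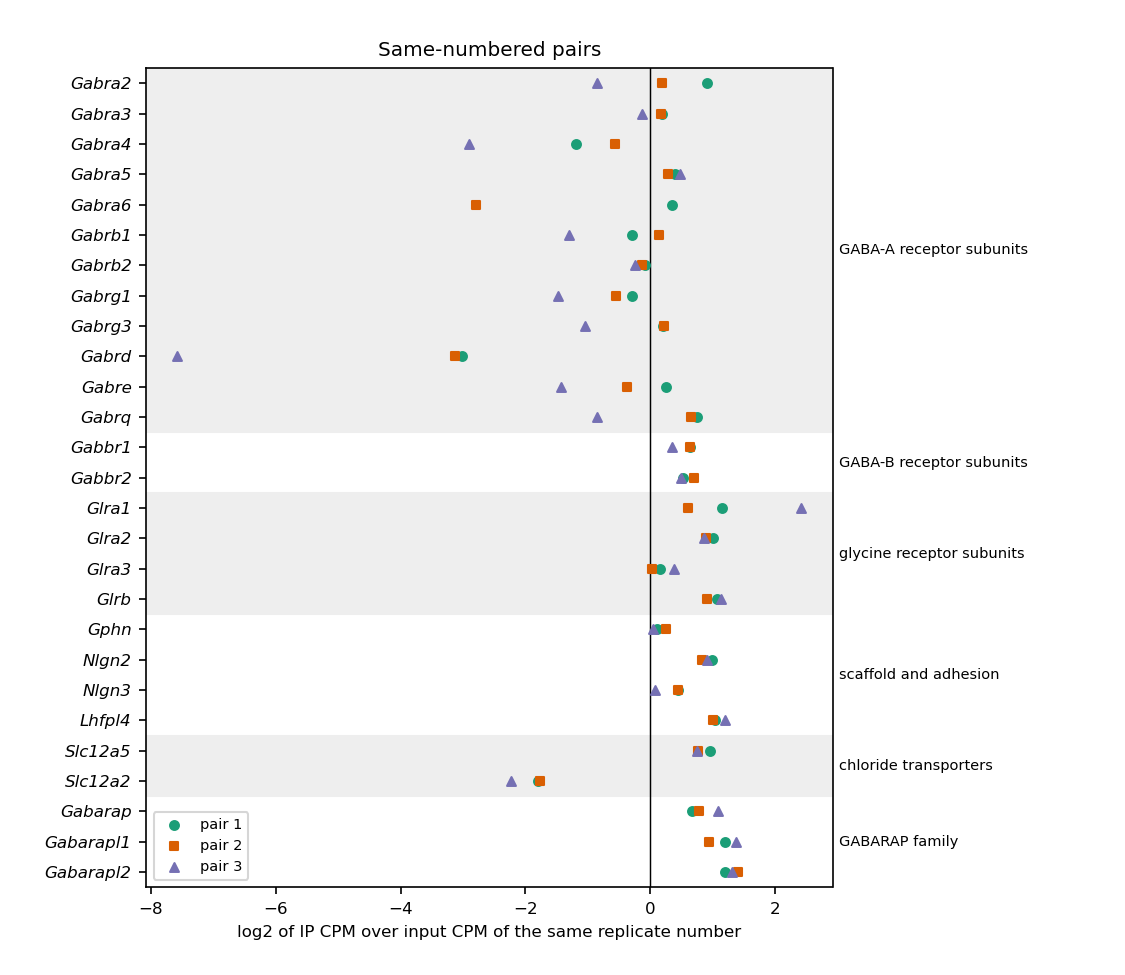
Log2 ratio of IP over input CPM for each gene within each same-numbered pair of libraries (x axis), with circles, squares and triangles for pairs 1, 2 and 3. Ratios of Glrb (0.90 to 1.13), Gabbr2 and Slc12a5 lie close together although their libraries overlap or nearly do, and Gabra2, Gabra4 and Gabrd spread widely, with pair 3 lowest; Gabra6 has 0 counts in both libraries of pair 3 and is not drawn there.

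IP replicate 3 was low for most inhibitory synapse genes. In that library 21 of the 26 tested genes were below the mean of IP replicates 1 and 2 on the log2 scale, with a median difference of -0.66. Over all 17197 tested genes the corresponding count was 7736 and the median 0.05. The 5 genes that were not lower there were Gabarap, Gabarapl1, Gabarapl2, Glra1 and Glra2. In input replicate 3, 14 of the 26 were below the mean of the other input libraries, with a median difference of -0.13, and over all 17197 tested genes 8692 were, so this count was near the background. There were 13 of the 26 (50%) below the others in both libraries of replicate 3, against 25.0% of all tested genes. Glrb, Gabbr2 and Slc12a5 had similar differences in both, at -0.83, -0.89 and -0.82 in IP and -0.97, -0.78 and -0.71 in input. Gabra4, Gabra2 and Gabrq instead went down in IP replicate 3 (-1.41, -0.93 and -1.06) and up in input replicate 3 (0.60, 0.46 and 0.49). The libraries with the same number also shared a sequencing lane, so lane and replicate cannot be told apart.

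Other genes of inhibitory transmission were followed as 8 lists of 80 genes in all, of which 77 were tested. Of these 77 genes 25 were higher, 22 were lower and 30 did not pass, beside shares of 26% higher and 27.9% lower over all tested genes. Without input replicate 2 the count of lower genes was 14. Among synthesis, loading and uptake genes 1 of 11 rose and 4 fell. Slc32a1, the vesicular transporter for GABA and glycine, rose by 0.78 (log2; SE 0.20, adjusted p = 0.0112). The uptake transporters Slc6a11, Slc6a9 and Slc6a13, of which the first 2 are largely astrocytic, had log2 fold changes of -1.72, -1.02 and -2.20 (adjusted p = 0.00202, 0.0150 and 0.00522). Of 7 GABA-B auxiliary subunits and GIRK potassium channels, which GABA-B receptors open, 2 rose and 3 fell. Kctd8 and Kcnj9 had log2 fold changes of 0.90 and 0.80, and Kctd12, Kcnj6 and Kctd12b had -1.19, -0.51 and -2.74. Of the 3 other GABA and glycine receptor subunits tested only Gabrr2, a rho subunit, passed (-1.37, adjusted p = 0.0321), and with the replicate block it did not (adjusted p = 0.0687).

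Of 15 other organisers of the inhibitory postsynapse 7 rose and 3 fell. This count and those of the lists below stand beside 26% higher and 27.9% lower over all tested genes. The dynein light chains Dynll2 and Dynll1, which bind gephyrin, rose by 1.10 and 0.64, and Iqsec3, a gephyrin-binding exchange factor, rose by 1.03. Shisa7, an auxiliary subunit of GABA-A receptors, fell by 1.77 (SE 0.19, adjusted p = 0.000165), and Mdga2, which masks neuroligins, fell by 0.60. Magi2, a scaffold that binds neuroligin-2, had -0.31 (adjusted p = 0.04995). Among the other neuroligin and neurexin genes, the presynaptic partners and relatives of the neuroligins above, Nrxn2 rose by 0.72. Receptor trafficking genes split evenly, 5 higher and 5 lower of 12. Nsf, Trak1 and Ubqln1 rose by 0.58, 0.57 and 0.36, and the kinesin motors Kif5a, Kif5b and Kif5c had log2 fold changes of -0.82, -0.72 and -0.27. Of 9 tested LC3 and ATG8 conjugation genes, the autophagy relatives of GABARAP, 6 rose and 1 fell. Map1lc3a rose by 1.59 (SE 0.17, adjusted p = 0.000192), Map1lc3b by 1.02 and Sqstm1 by 0.74, and Nbr1 had -0.34. Map1lc3a was the 1 gene of the 77 with a change past 2-fold in the higher direction. Of 16 other chloride and bicarbonate genes 3 rose and 4 fell, which was near the shares over all genes. Stk39, a kinase that acts on chloride transporters, rose by 0.47, and the bicarbonate exchanger Slc4a3 rose by 0.87. The kinases Wnk1 and Oxsr1, which act on the same transporters, had -0.85 and -0.73. Car2, the carbonic anhydrase of oligodendrocytes and astrocytes, had -2.69 (SE 0.11, adjusted p = 4.14e-06).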

How the data were processed

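RNA-seq was run on 3 IP and 3 input libraries of mouse midbrain. Per the submitters' processing notes, reads were aligned to mm10 with STAR 2.0.0e and HTSeq was used. The annotation, overlap mode and strand setting were not given in the sources used here. The deposited files hold raw counts per gene symbol, with summary rows for reads not assigned to a gene, which were left out of library sizes and tests.

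From the counts, edgeR 4.0.16 (R 4.3.3) was fitted to all genes: filterByExpr (minimum count 10, minimum total 15) kept 17197 of 32531 entries, TMM scaled the libraries, and the robust quasi-likelihood test compared IP with input, two-sided, with Benjamini-Hochberg adjustment over all tested genes and a threshold of 0.05. Changes past 2-fold were tested with glmTreat. The fits were tested on simulated counts. Levels are CPM; exon lengths, positions and overlaps came from GENCODE M21 on the same build, and promoters from RefSeq.

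All 27 genes are named; of each list of other genes, up to 3 of the most abundant in each direction, apart from a few that are not reported here. The genes, lists and markers were chosen with earlier results of these data known. The labels give same-numbered IP and input libraries the same lane. Within a number, deviations from the mean of the group had correlations of 0.1545, 0.0744 and 0.0506 (replicates 1, 2 and 3), and each library correlated best with its own number. Replicates of a group correlated at 0.971 to 0.986 on the log-CPM scale and differed by more than counting noise. Alternatives were RLE (the scaling DESeq2 1.42.0 also uses), upper-quartile or no scaling, no or a stricter filter (minimum count 50), DESeq2, limma-voom (limma 3.58.1), a replicate block, a threshold of 0.01 and leaving out libraries.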

Additional observations from a re-analysis of the deposited data

How the results depend on the processing

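Of the 14 inhibitory synapse genes called, 8 kept their direction and call under all 16 alternatives: Gabrd, Glra2, Nlgn2, Lhfpl4, Slc12a2, Gabarap, Gabarapl1 and Gabarapl2. No alternative restored reads that aligned to several places, so that limit on Gabarapl2 remains. Gabbr1 lost its call under 8, Slc12a5 under 7, Gabrg1 under 6, Glrb under 5, Glra1 under 2 and Gabra4 under 1, the replicate block, and no called gene changed direction. The block gave 13 genes higher and 3 lower. At a threshold of 0.01, 6 of the 26 genes were higher and 3 were lower. Of the 77 other pathway genes 17 were higher and 12 were lower at that threshold. Over all 17197 tested genes the counts there were 3042 higher and 3414 lower. With a 1.5-fold test 9 of the inhibitory synapse genes passed, a count that does not separate higher from lower genes. No share over all genes is given for that test, so its count cannot be set beside a background. Counts over all genes moved as well. Over the alternatives other than leaving out 1 library they were 3042 to 4811 higher and 3414 to 5567 lower. Leaving out each library in turn gave 6 to 13 genes higher and 3 to 4 lower, 20 to 26 pathway genes higher and 14 to 21 lower, 3721 to 4384 of all genes higher and 4164 to 4783 lower, 2 to 2 genes past 2-fold, and a log2 difference in the Slc12a5 to Slc12a2 ratio of 2.60 to 2.93. Scaling moved the median log2 fold change of all genes from -0.01 to -0.17 (upper quartile) or -0.15 (library totals). Changes of sign occurred only in genes that did not pass. With upper-quartile scaling Gabra2, Gabra3, Glra3 and Gphn were at -0.042, -0.052, -0.0059 and -0.023, and with library totals Gabra2, Gabra3 and Gphn were at -0.027, -0.033 and -0.0060. Over the fits that left out 1 library, Gabra2 ranged from -0.103 to 0.376, Gabra3 from -0.068 to 0.296, Gabrb2 from -0.297 to 0.045, Gabrg3 from -0.328 to 0.0086 and Glra3 from -0.178 to 0.405. Without IP replicate 2 and input replicate 3 together, Gabra3, Gabra5 and Glra3 were at -0.063, -0.00081 and -0.292. The cause was not tested. Gabra6 had reads mainly in the libraries of replicate 2 and was not tested.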
